A study of Mus musculus with 4 samples.

Results

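At day 4 of gastruloid culture, 490 of 7202 cells (6.80%, 95% interval 6.23 to 7.41%) carried transcripts of the pluripotency factor *Pou5f1* together with those of *Zfp42* or *Dppa3*. The cells were chosen by 3 genes, with 2 or more UMIs of *Pou5f1* and 2 or more of *Zfp42* and *Dppa3* combined, among cells with 2000 or more UMIs and a mitochondrial share under 20%. A UMI (unique molecular identifier) marks 1 captured transcript molecule. Against 170 *Pou5f1* cells of the same library that carried *Utf1* or *L1td1* RNA but none of *Zfp42* or *Dppa3*, these cells had higher *Dppa5a*, *Klf2*, *Tdh*, *Mylpf*, *Sox2* and metallothionein RNA and lower *T*, *Fgf8* and *Fst* RNA. The data hold 31330 cell barcodes in all, 7324 of them from day 4.

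*Pou5f1* encodes Oct4, which with Sox2 and Nanog holds the gene network of pluripotent cells. *Zfp42* encodes Rex1 and *Dppa3* encodes Stella, a maternal and germline protein, and both genes are read in naive embryonic stem cells, which resemble the epiblast before implantation, and are shut down as the epiblast is primed for gastrulation. *Klf2* and *Dppa5a* mark the naive state as well, whereas *Fgf5*, *Otx2* and *Pou3f1* mark the later states and *T* marks the primitive streak. Primordial germ cells of the mouse embryo read *Pou5f1* and *Dppa3* again, together with *Prdm1*, *Tfap2c* and *Nanos3*.

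Gastruloids are free-floating aggregates of embryonic stem cells that elongate and form derivatives of the germ layers without a uterus. All libraries came from wild type Zx1 mouse embryonic stem cells, a single line, grown before aggregation with LIF, a MEK inhibitor and the Wnt agonist Chiron. The aggregates received Chiron for a day from day 2, and bFGF, VEGF and ascorbic acid from day 4. Pooled gastruloids of days 4, 5, 6 and 11 each gave a single 3′ RNA library of single cells. Cells are not replicates, so no p-value or standard error is given, and the intervals at 95% cover counting error only. Separate cultures could differ by more than these intervals.

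The selected cells were compared with 2 sets of the same library. The first comprised 170 cells (2.36%) with 2 or more *Pou5f1* UMIs, 3 or more of *Utf1* and *L1td1* combined and none of *Zfp42* or *Dppa3*. They are called primed cells here as a working name, although the rule used no marker of the primed state. The second comprised the other 6712 cells of day 4. As a background level, 4197 cells had no UMI of *Pou5f1*, *Zfp42* or *Dppa3*.

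The selected cells were deeper than the rest. They held 3639 to 140635 UMIs, with a median of 37942.5, against medians of 27414 in primed cells and 24728 in the other cells. A doublet score at or above that of the highest 8% of the library was found in 106 of the 490 cells (21.6%), in 22 primed cells (12.9%) and in 509 of the other cells (7.58%). Deep cells reach 2 UMIs more readily, and after each cell was thinned to 5000 UMIs the rule found 130 of 7172 cells (1.81%, 1.52 to 2.15%). Only 1 of the 490 barcodes also occurred in another library. The part of depth and doublets in the results was not tested, and values without them are given below beside the genes they moved with.

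The genes that selected the cells are given as a description. *Pou5f1* (ENSMUSG00000024406, chr17:35506018-35510772, GRCm38) had 2 to 56 UMIs per cell with a median of 12, and a pooled level of 335 CPM (UMIs of the gene over all UMIs of the set, times 1e+06) against 382 CPM in primed cells. *Zfp42* (ENSMUSG00000051176, chr8:43295063-43306980) had up to 39 UMIs per cell, a median of 6.5 and a level of 210 CPM. *Dppa3* (ENSMUSG00000046323, chr6:122626410-122630272) had up to 48 UMIs per cell, a median of 2 and a level of 130 CPM. *Zfp42* was the broader of the pair, since 182 cells had *Zfp42* without *Dppa3*, 15 had *Dppa3* without *Zfp42* and 293 had both. *Utf1*, a chromatin protein of pluripotent cells, stood at 185 CPM in the selected cells and 75.4 CPM in primed cells, and *L1td1*, an RNA-binding protein of embryonic stem cells, at 188 and 190 CPM, although *Utf1* and *L1td1* chose the primed cells and not the others.

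The stretch before the start of *Zfp42* is shown because *Zfp42* had more UMIs than *Dppa3* and this stretch holds an octamer, the word that the Oct4 protein reads. These are the 250 bases upstream of the RefSeq start on the minus strand (chr8:43307010-43307259, GRCm38.p6), 5′ to 3′, with the octamer ATTTGCAT and a CACCC box, CACACCC, in capitals.
Zfp42: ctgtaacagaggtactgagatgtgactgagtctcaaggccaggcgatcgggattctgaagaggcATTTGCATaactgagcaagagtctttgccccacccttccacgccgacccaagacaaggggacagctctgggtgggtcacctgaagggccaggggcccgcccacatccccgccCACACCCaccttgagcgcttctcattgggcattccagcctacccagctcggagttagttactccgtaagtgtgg
Both strands were searched over windows from 250 bases before to 50 bases after each start. The octamer was found in 570 of 32851 RefSeq promoters (1.74%) and the CACCC box in 2613 (7.95%). Of 11 genes sought, 8 had a promoter in the table, and among these *Zfp42* alone held the octamer. A match of letters is a description and no evidence of binding.

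The counts that chose the cells were continuous at the threshold and spread widely above it. Of the cells with 2 or more *Pou5f1* UMIs, 911 had no UMI of *Zfp42* or *Dppa3*, 230 had 1, 86 had 2 and 45 had 3. The selected cells then ran to 72 UMIs, with a lower quartile of 3, a median of 11 and an upper quartile of 21. Just inside the threshold, the 86 cells with 2 UMIs had 712 CPM of *Dppa5a* and 27.3 CPM of *Klf2*. Just outside, the 230 cells with 1 UMI had 502 CPM of *Dppa5a* and 19.7 CPM of *Klf2*. The other side of the rule was thinly filled, since 10 cells had 2 or more UMIs of the pair but a single *Pou5f1* UMI, and 26 had none.

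**Figure D1:**
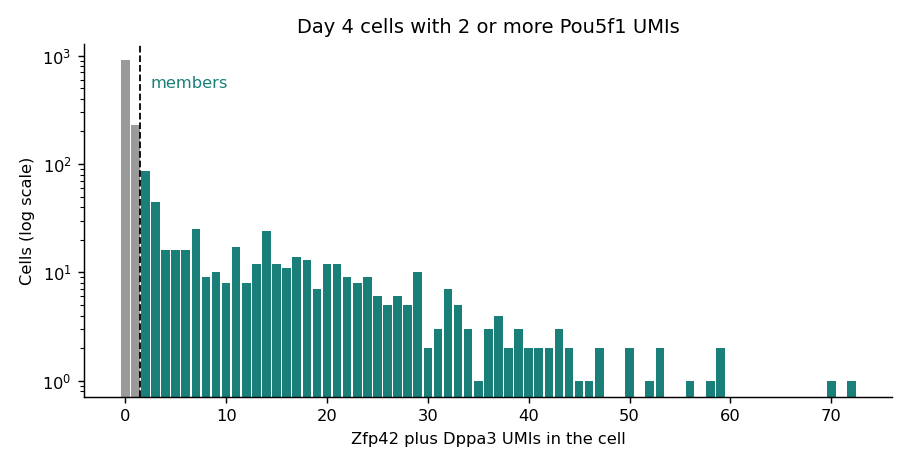
Number of day 4 cells with 2 or more Pou5f1 UMIs (log scale) by their count of Zfp42 plus Dppa3 UMIs. Bars right of the dashed line are the 490 selected cells, whose counts run from 2 to 72 with no gap at the line.

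Of 9198 genes with a mean of 5 CPM or more over both sets, and without the 5 genes of the rules, 77 (0.837%) were higher in the selected cells than in primed cells past 2-fold of CPM plus 10 and 16 (0.174%) were lower. The median ratio over all of them was 0.981. Most genes lay within 2-fold of equal levels, and several naive genes lay at the upper edge.

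*Klf2* and *Dppa5a*, the given markers that the rule did not use, had the ratios of rank 3 and 4 among genes with a mean of 50 CPM or more, after *Mylpf* and *Tdh*. *Dppa5a*, an RNA-binding protein of the inner cell mass and the germline (ENSMUSG00000060461, chr9:78367052-78368177), had 0 to 597 UMIs per selected cell with a median of 97, and 0 to 229 with a median of 6 per primed cell. Its level was 2659 CPM (2636 to 2681) against 566 CPM (546 to 586), a ratio of 4.64. *Klf2*, a zinc finger factor of the naive network (ENSMUSG00000055148, chr8:72319033-72321656), had a median of 8 and up to 58 UMIs per selected cell, and a median of 0 and up to 16 per primed cell. Its level was 203 CPM (197 to 209) against 24.3 CPM (20.4 to 28.7), a ratio of 6.22. The per-cell ranges of both genes overlapped between the sets.

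Both markers that the rule did not use were thus higher, and most but not all of the selected cells had them. They came with the label, and the cells were chosen with earlier results of these data known. Their levels are therefore a description and no independent support for the label. *Klf2* had a UMI in 82.0% of the selected cells, in 27.6% of primed cells and in 3.24% of the cells without *Pou5f1*, *Zfp42* and *Dppa3*. With every cell thinned to 5000 UMIs, these shares were 55.0%, 8.24% and 0.743%. *Dppa5a* had a UMI in 98.8%, 90.6% and 35.5% of the cells, and in 93.9%, 64.7% and 9.56% after thinning. Before thinning, a *Dppa5a* UMI alone therefore did little to tell the selected from the primed cells.

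Of the 14 genes of the naive pluripotency list, 7 were higher past 2-fold against primed cells, beside 0.837% of all genes. None was lower, and 2 fell under the limit on low values. The median ratio over the 14 was 2.18, beside 0.981 over all genes. Besides *Dppa5a* and *Klf2* these were *Fbxo15*, *Tfcp2l1*, *Esrrb*, *Tcl1* and *Nr5a2*. *Esrrb*, an orphan nuclear receptor of the naive network, stood at 19.5 CPM (17.6 to 21.5) against 0.885 CPM, from 405 and 5 UMIs. *Tcl1*, a cofactor of the Akt kinase, had 317 UMIs in the selected cells and 0 in primed cells, where 3 UMIs would have given 0.531 CPM. *Fbxo15*, long used as a reporter of pluripotency, stood at 33.7 against 2.48 CPM. *Nanog* was less separated, at 63.7 CPM (60.3 to 67.2) against 46.0 CPM (40.6 to 52.0), a ratio of 1.32.

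The general pluripotency genes were split. *Sox2*, the partner of Oct4 (ENSMUSG00000074637, chr3:34650405-34652461), had a median of 6 UMIs per selected cell and 1 per primed cell, with levels of 179 CPM (173 to 185) and 49.7 CPM (44.1 to 55.9), a ratio of 3.16. *Dppa4* stood at 61.6 against 14.9 CPM and its binding partner *Dppa2* at 31.6 against 5.66 CPM. Together with *Gdf3*, a TGF-beta family ligand, these were the 4 of 13 listed genes past 2-fold, beside 0.837% of all genes, and none was lower. *Sall4*, *Tdgf1*, *Trim71* and *Lin28a*, which are also read in later progenitors, had ratios of 1.05, 1.05, 0.89 and 0.75.

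**Figure D2:**
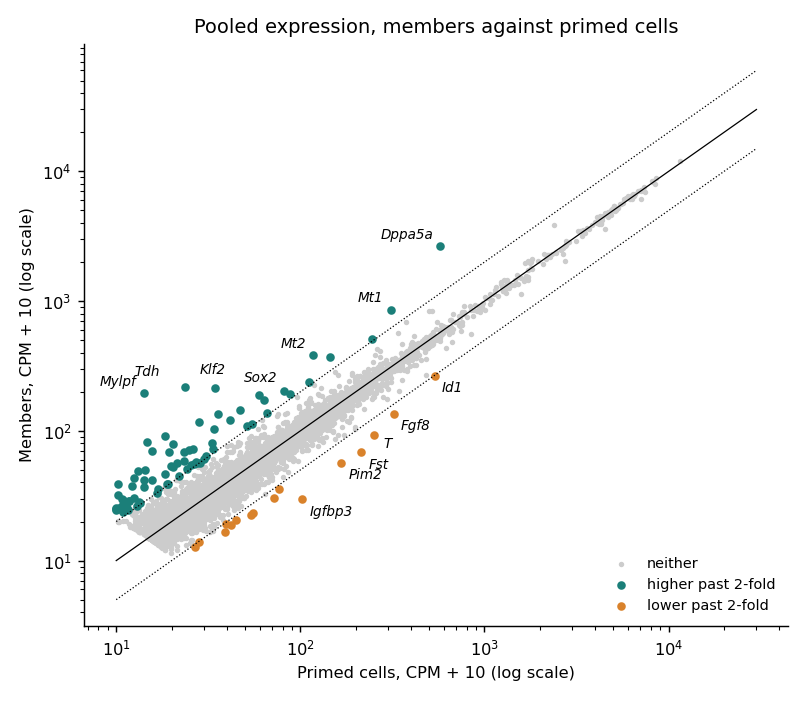
Pooled level of each of 9198 genes in the 490 selected cells (members, vertical axis) against the 170 primed cells (horizontal axis), as CPM plus 10 on log scales. The solid line marks equal levels and the dotted lines 2-fold; 77 genes lie above the upper line and 16 below the lower one.

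Several of the highest genes are not part of the pluripotency lists. Among genes with a mean of 50 CPM or more, the 15 highest ratios were those of *Mylpf*, *Tdh*, *Klf2*, *Dppa5a*, *Rbmxl2*, *Fabp3*, *Mt2*, *Sox2*, *Crip1*, *Lima1*, *Mybl2*, *Mt1*, *Hspb1*, *Rhox5* and *Asns*. *Mylpf*, known as the regulatory light chain of fast skeletal muscle myosin (ENSMUSG00000030672, chr7:127208890-127214298), had a ratio of 13.9, from 186 CPM (180 to 192) in the selected cells and 4.07 CPM (2.58 to 6.11) in primed cells. Its UMIs per selected cell ran from 0 to 140 with a median of 3, and no primed cell had more than 3. *Tdh*, the threonine dehydrogenase on which mouse embryonic stem cells depend (ENSMUSG00000021953, chr14:63492347-63509092), had a ratio of 9.23, from 208 against 13.6 CPM. The ratios of *Mylpf* and *Tdh* depended on the cells compared, at 17.8 and 15.5 without high doublet scores, 20.7 and 14.1 in cells of 20000 to 45000 UMIs, and 7.52 and 2.62 where cells were thinned to 5000 UMIs before the rule.

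The metallothioneins, small zinc-binding proteins, went together. *Mt1* stood at 851 CPM (839 to 864) in the selected cells, 300 CPM (286 to 315) in primed cells and 61.9 CPM in the other day 4 cells. *Mt2* stood at 375, 108 and 15.7 CPM. *Rbmxl2*, an RNA-binding protein best known from the testis, stood at 107 against 18.2 CPM, and *Asns*, the enzyme that makes asparagine, at 194 against 71.7 CPM.

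*Fabp3*, a fatty acid binding protein, was held in large part by few cells, with 41.7% of its UMIs in 6 of the 490. Its ratio of 3.78 became 2.35 without a group of 11 cells that stood apart among all day 4 cells when they were grouped without the genes of the rules. Among all groups, this group was chosen as the one with the highest *Cubn* level, so its high *Cubn* came with the choice and is a description. This group took in 6 of the selected cells and no primed cell, and also had high *Fabp3* and *Dab2*. *Cubn* and *Dab2*, an endocytic receptor and its adaptor in visceral endoderm, had 24 to 86 and 18 to 137 UMIs in each of the 6 cells. Of all *Cubn* UMIs in the 490 cells, 99.4% came from these 6, as did 81.1% of *Dab2*, 79.3% of *Amn*, 45.3% of *Lama1* and 37.4% of *Sparc*. The same 6 cells had 72 UMIs of *Pou5f1* and 19 of *Zfp42*, but 1 of *Dppa3*, 1 of *Klf2*, 1 of *Mylpf* and 0 of *Sox2*, where the other selected cells had 206 CPM of *Klf2* and 182 CPM of *Sox2*. *Dppa5a* was not missing from the 6 cells, with 519 UMIs, or 1572 CPM against 2676 CPM in the other selected cells. None of the 6 cells had a high doublet score. Of the 10 genes of the primitive and visceral endoderm list, 4 passed the limit on low values against primed cells. *Cubn* and *Dab2* were higher past 2-fold, beside 0.837% of all genes, and the summed level of the list was 69.8 CPM against 22.3 CPM. *Afp* had no UMI in the 6 cells, and *Apoa1* and *Hnf4a* had 1 and 2. *Ttr* had 18, with up to 14 in a cell.

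Fewer genes were lower in the selected cells. Above a mean of 50 CPM the 5 lowest ratios were those of *Igfbp3*, *Fst*, *Pim2*, *T* and *Fgf8*, of which *Fst*, *T* and *Fgf8* belong to the primitive streak list. *T*, or Brachyury, the T-box factor of the streak (ENSMUSG00000062327), had a median of 0 UMIs per selected cell and 5 per primed cell, with levels of 82.4 CPM (78.5 to 86.4) and 241 CPM (229 to 254) and a ratio of 0.37. *Fst*, or follistatin, which binds activin, stood at 58.4 against 205 CPM, and the ligand *Fgf8* at 125 against 312 CPM. These were the 3 genes of the 12 on the primitive streak list past 2-fold, all lower, beside 0.174% of all genes. *Igfbp3*, which binds insulin-like growth factors, stood at 19.6 against 92.4 CPM, the kinase *Pim2* at 46.7 against 157 CPM and *Id1*, a target of BMP signalling, at 254 against 528 CPM. The other 9 of the 15 lowest genes above 50 CPM, from *Ddit4* to *Vim*, had ratios of 0.52 to 0.59 and did not reach 2-fold.

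*T* was not absent from the selected cells. It had 3 or more UMIs in 154 of them (31.4%), in 103 primed cells (60.6%) and in 10.4% of the other day 4 cells. Against the other day 4 cells *T* was higher, with a ratio of 2.08, so that the selected cells lay between both sets.

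Of the 12 formative and primed epiblast genes, 11 passed the limit on low values against primed cells, and none of them passed 2-fold. *Fgf5* stood at 8.08 against 24.1 CPM, *Pou3f1* at 9.28 against 23.7 CPM, *Sox3* at 6.49 against 22.1 CPM and the DNA methyltransferase *Dnmt3b* at 199 against 288 CPM, with ratios of 0.53, 0.57, 0.51 and 0.70. *Otx2* did not separate the sets at 29.5 and 30.1 CPM. *Dnmt3l*, the cofactor that guides new DNA methylation, went the other way, at 32.1 against 4.07 CPM with a ratio of 2.99. It was alone past 2-fold among 8 genes of DNA methylation, beside 0.837% of all genes higher. Of 14 genes of Nodal and FGF signalling, *Fgf8* and the Nodal inhibitor *Lefty1* were lower past 2-fold, beside 0.174% of all genes. *Lefty1* stood at 20.4 against 62.3 CPM.

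**Figure D3:**
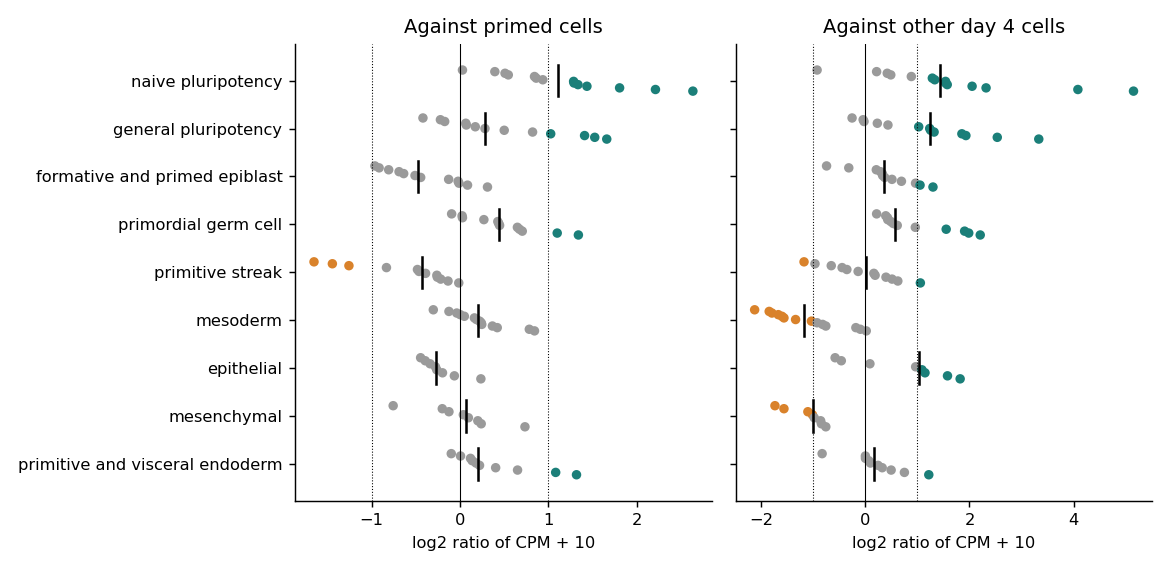
log2 ratio of CPM plus 10 in the 490 selected cells against primed cells (left) and other day 4 cells (right); each point is a gene of the list named on the vertical axis, bars are medians over the list, dotted lines mark 2-fold and colours the genes past it. Past 2-fold lie 7 of 14 naive genes to the right and 3 streak genes to the left against primed cells, and 8 mesoderm genes to the left against the other cells. Over all genes, 0.837% were higher and 0.174% lower against primed cells, and 0.98% were lower against the other cells.

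Against the other 6712 day 4 cells, 210 of 9187 genes (2.29%) were higher past 2-fold and 90 (0.98%) were lower, with a median ratio of 0.949 over all. The 10 highest above a mean of 50 CPM were *Dppa5a*, *Tdh*, *Klf2*, *Mylpf*, *Mt2*, *Mt1*, *Sox2*, *Rbmxl2*, *Chchd10* and *Hspb1*. *Dppa5a* stood at 2659 against 65.2 CPM, a ratio of 35.5, and *Klf2* at 203 against 2.58 CPM, a ratio of 16.9. *Chchd10*, a mitochondrial protein, stood at 372 against 33.5 CPM in the other cells and at 245 CPM in primed cells.

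The lowest 10 were *Asb4*, *Hand1*, *Pmp22*, *Hmga2*, *Igf2*, *Phlda2*, *Igfbp4*, *Crabp1*, *Nrp1* and *Mesp1*. Of 14 mesoderm genes, 13 passed the limit on low values against the other cells. Of these, 8 were lower past 2-fold than in the other cells and none was higher, beside 0.98% and 2.29% of all genes. Against primed cells 11 passed the limit, and none of them was past 2-fold in either direction. *Hand1*, a factor of lateral and extraembryonic mesoderm, stood at 53.2 CPM in the selected cells, 45.5 CPM in primed cells and 266 CPM in the other cells. *Mesp1*, the factor of early cardiac mesoderm, stood at 51.4, 65.7 and 176 CPM.

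The mesoderm RNA in the selected cells moved with the doublet score. *Hand1* had 3 or more UMIs in 106 selected cells (21.6%), 28 primed cells (16.5%) and 63.7% of the other cells. Without the cells of high doublet score the level of *Hand1* was 18.8 CPM in the remaining 384 selected cells and 21.9 CPM in 148 primed cells, and *Mesp1* was at 27.2 and 49.8 CPM. *Twist1* went from 29.4 to 12.9 CPM in the selected cells. *Dppa5a* was at 3191 CPM and *T* at 93.9 CPM in the same 384 cells.

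Several epithelial and mesenchymal genes separated the selected cells from the other cells past 2-fold, and none of either list did so from primed cells. Of 8 epithelial genes, 7 passed the limit on low values against the other cells. Of these, *Epcam*, *Cldn7*, *Cdh1* and *Esrp1* were higher past 2-fold, beside 2.29% of all genes. The other 3 were not past 2-fold, and the lowest ratio of the list was 0.669. Of 8 mesenchymal genes, *Vim*, *Twist1*, *Cdh11* and *Zeb2* were lower past 2-fold, beside 0.98% of all genes. *Epcam*, an adhesion protein of epithelia, stood at 201 CPM in the selected cells, 257 CPM in primed cells and 49.9 CPM in the other cells. *Vim*, or vimentin, stood at 194, 334 and 427 CPM.

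Within the selected cells, the levels of *Dppa5a* and *Klf2* from the naive list followed the count of *Zfp42* plus *Dppa3*, as did *Tdh*, *Mylpf* and *Sox2*. Other naive genes differed between cells with 20 or more and cells with 2 to 3 UMIs of the pair. The ratio of the former to the latter was 2.85 for *Nanog* and 2.71 for *Esrrb*. It was 1.55 for *Klf4*, 1.18 for *Tbx3* and 1.14 for *Klf5*, none of them past 2-fold. The naive genes therefore did not all follow the count to the same degree. Cells with 2 to 3, 4 to 9, 10 to 19 and 20 or more UMIs of the pair numbered 131, 92, 126 and 141. *Dppa5a* stood at 1012, 2170, 3107 and 3900 CPM in these steps, and *Klf2* at 55.3, 157, 236 and 321 CPM. *Tdh* stood at 57.0, 147, 220 and 357 CPM, and *Mylpf* at 63.6, 189 and 391 CPM in the last 3 steps. *Sox2* stood at 58.7, 135, 212 and 275 CPM. All 5 genes were lowest in the cells with 2 to 3 UMIs and highest in those with 20 or more.

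*T* and *Fst* went the other way. *T* stood at 151, 77.4, 56.0 and 52.3 CPM and *Fst* at 119, 52.9, 36.6 and 30.9 CPM, so that most of the difference lay between the first pair of steps. *Hand1* stood at 67.7, 49.2, 52.5 and 44.5 CPM. The steps had median depths of 32648, 34541.5, 40996.5 and 40909 UMIs and high doublet scores in 27, 23, 29 and 27 of their cells.

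The neighbourhoods of the cells changed with the count as well. Among the 20 nearest cells in 30 principal components made without the genes of the rules, selected cells made up 34.0% on average for cells with 2 to 3 UMIs and 97.0% for cells with 20 or more. They made up 18.4% for *Pou5f1* cells with 1 UMI of the pair and 6.21% for those with none. In a grouping of all day 4 cells on the same components, 401 of the 490 cells (81.8%) fell into 1 group of 583 cells, which also held 80 of the 170 primed cells (47.1%). A second group of 486 cells held 42 selected and 70 primed cells. Selected and primed cells therefore shared groups, and the cells just past the threshold had mixed neighbours.

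**Figure D4:**
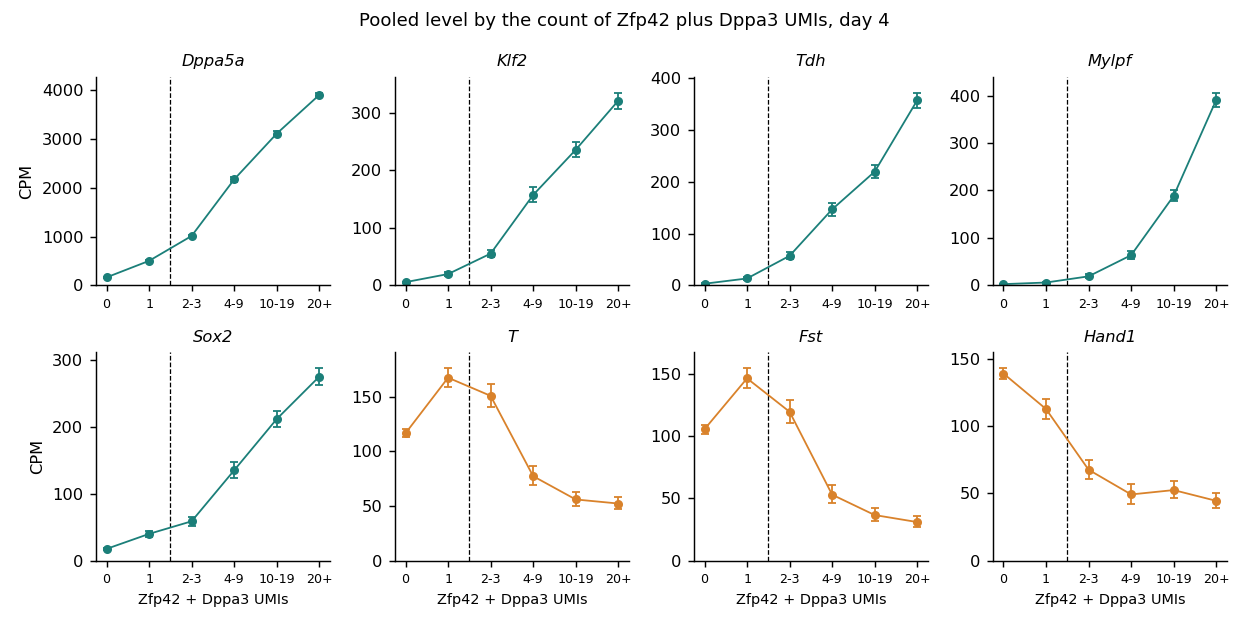
Pooled CPM of 8 genes (vertical axes, each from 0) in day 4 cells with 2 or more Pou5f1 UMIs, by their count of Zfp42 plus Dppa3 UMIs. Bars are 95% Poisson intervals for counting error and the dashed line is the threshold; Dppa5a, Klf2, Tdh, Mylpf and Sox2 are highest at 20 or more UMIs and T, Fst and Hand1 are lower there than in cells with 0 or 1.

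Cells with a single gene of the pair and cells with both differed in the count that chose them. The 182 cells with *Zfp42* and no *Dppa3* had a median of 3 UMIs of *Zfp42*, and the 293 cells with both had a median of 18 of the pair. *Mylpf* stood at 56.4 CPM in the former and 273 CPM in the latter, *Tdh* at 108 and 275 CPM, *Klf2* at 140 and 248 CPM, and *T* at 114 and 62.8 CPM. These differences run with the count of the pair and cannot be told apart from it. Not every naive gene was lower in the cells with *Zfp42* alone. The ratio of these cells to those with both was 1.25 for *Klf4*, 1.15 for *Klf5* and 1.04 for *Tbx3*. It was 0.64 for *Nanog* and 0.68 for *Esrrb*. The 15 cells with *Dppa3* and no *Zfp42* were too few for more than a description. Between cells with *Zfp42* alone and those with *Dppa3* alone, and among genes with a mean of 50 CPM or more, the highest 5 ratios were those of *Fabp3*, *Lrpap1*, *Col4a1*, *Sparc* and *Klf2*, and the lowest 5 those of *Cdkn1c*, *Defa30*, *Cldn7*, *Trh* and *Crip2*. *Trh*, the thyrotropin-releasing hormone gene, stood at 213 CPM from 1649 UMIs and 425 CPM from 234 UMIs. For *Fabp3*, *Lrpap1*, *Col4a1* and *Sparc*, the 6 cells with *Cubn* described above held 41.7%, 29.3%, 41.4% and 37.4% of the UMIs of all selected cells.

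Of 12 primordial germ cell genes, 7 passed the limit on low values against primed cells. Of these, *Rhox5* and *Tfap2c* were higher past 2-fold, beside 0.837% of all genes, and none was lower. *Rhox5*, an X-linked homeobox gene also read in extraembryonic cells, stood at 358 against 135 CPM. *Tfap2c*, a factor of germ cell specification that naive stem cells also carry, stood at 44.5 CPM (41.7 to 47.5) against 15.4 CPM. *Nanos3*, an RNA-binding protein of germ cells, stood at 10.2 against 2.66 CPM and *Prdm1*, or Blimp1, at 11.3 against 7.61 CPM, neither past 2-fold on this scale. *Ifitm3* stood at 128 against 74.9 CPM. *Prdm1*, *Tfap2c* and *Nanos3* all had a UMI in 35 selected cells (7.14%, 5.03 to 9.79%) and in 3 primed cells (1.76%). They did so in 0 of the 4197 cells without *Pou5f1*, *Zfp42* and *Dppa3*, which allows a share of up to 0.0715% at 3 cells and 0.0879% by the upper Clopper-Pearson limit. With *Prdm14* added, 4 selected cells and 1 primed cell remained. The median depths of these sets were 37942.5, 27414 and 24326 UMIs, and the part of depth in these shares was not tested.

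Of 12 germline genes that DNA methylation holds silent, *Sycp3* and *Tex19.1* passed the limit on low values. Neither was past 2-fold against primed cells. Both were higher past 2-fold against the other day 4 cells, with ratios of 2.56 and 2.02, beside 2.29% of all genes. *Sycp3*, a protein of meiotic chromosomes, stood at 60.7 CPM in the selected cells, 63.9 CPM in primed cells and 17.6 CPM in the other cells. *Tex19.1*, a germline gene also read in pluripotent cells, stood at 12.9, 4.43 and 1.36 CPM. The summed level of the 12 genes was 89.9 CPM in the selected cells, 75.4 CPM in primed cells and 20.8 CPM in the other cells. Genes of the 2-cell embryo were near 0. Of the 12 genes of the 2-cell-like list, 11 were in the files, and their summed level was 0.144 CPM with 9 of them at 0.

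Cells that met the rule were found again on the later days. They numbered 324 of 7408 at day 5 (4.37%, 3.92 to 4.86%), 27 of 5850 at day 6 (0.462%, 0.304 to 0.671%) and 1 of 8730 at day 11 (0.0115%). With every cell thinned to 5000 UMIs the shares were 1.20% at day 5, 0.157% at day 6 and 0 of 8390 cells at day 11, which allows a share of up to 0.0358% at 3 cells and 0.0440% by the upper Clopper-Pearson limit. The order of the days was the same with and without thinning, and the counting intervals of the days did not overlap in either case. Primed cells numbered 40 at day 5, 2 at day 6 and 0 at day 11. Each day is 1 library of its own pool of gastruloids, so days and libraries cannot be told apart.

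The selected cells of the later days had less of the streak genes, while few naive genes moved past 2-fold. Against day 4, 5 of 12 streak genes were lower past 2-fold at day 5 and 7 at day 6, and none was higher, beside 0.946% and 0.702% of all genes lower. Of 14 naive genes, *Fbxo15* alone was higher past 2-fold at day 5, beside 1.43% of all genes, and none was lower. At day 6 none was higher, beside 1.03% of all genes, and *Tbx3*, which is also a mesoderm gene, was lower. The pooled CPM was above that of day 4 for 11 of the 14 naive genes at day 5 and for 7 at day 6. Over the 13 naive genes that passed the limit on low values, the median ratio was 1.21 at day 5 and 0.978 at day 6. Over all genes it was 0.981 and 1.01. *Tfcp2l1* stood at 20.4, 18.5 and 13.2 CPM at days 4, 5 and 6, and *Esrrb* at 19.5, 25.8 and 18.8 CPM. *Dppa5a* stood at 2659, 4615 and 4150 CPM on the same days, and *Fbxo15* at 33.7, 86.1 and 74.7 CPM. *Utf1* stood at 185, 294 and 408 CPM. *Klf2* stood at 203, 248 and 332 CPM, and *Mylpf* at 186, 313 and 154 CPM. *T* went from 82.4 to 14.7 and 11.9 CPM and *Fgf8* from 125 to 5.09 and 3.14 CPM. *Fgf5* went from 8.08 to 0.419 and 0.628 CPM. *T* and *Fgf8* were also lower in the other cells of the later libraries. There *Fgf8* stood at 84.4, 13.6 and 16.8 CPM at days 4, 5 and 6. *T* stood at 34.4 CPM at day 4 and 7.86 CPM at day 5 in the other cells. The fall of *T* and *Fgf8* was therefore not confined to the selected cells. The share of selected cells with 20 or more UMIs of *Zfp42* plus *Dppa3* was 28.8% at day 4 and 37.0% at day 5. It was 55.6% of the 27 cells at day 6.

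Some genes did not keep 1 direction across the days. *Dnmt3b* stood at 199, 42.2 and 154 CPM and *Mt1* at 851, 2807 and 1255 CPM. The other cells had 61.9, 602 and 67.9 CPM of *Mt1* on the same days, so the day 5 level of *Mt1* was high in the whole library. The shares of high doublet scores were 21.6%, 21.9% and 25.9%.

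**Figure D5:**
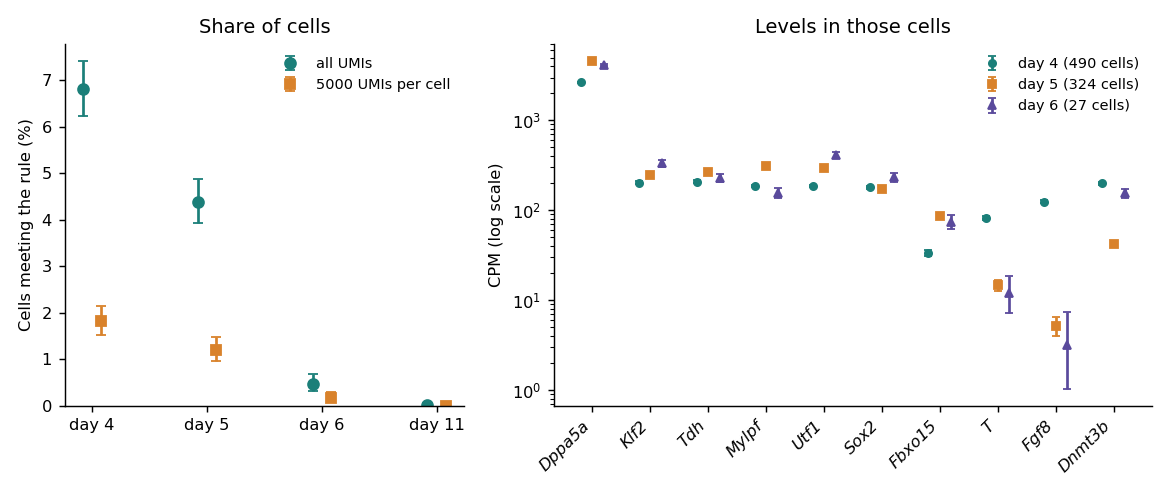
Left, share of cells that met the rule on each day with all UMIs and with 5000 UMIs per cell, with 95% Clopper-Pearson intervals for counting error; right, pooled CPM of 10 genes (log scale) in those cells at days 4, 5 and 6 with 95% Poisson intervals. The share falls from 6.80% at day 4 to 0.462% at day 6, while Dppa5a stays above 2600 CPM and T and Fgf8 are lower at days 5 and 6 than at day 4.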

How the data were processed

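The authors deposited, for each library, UMI counts per gene and cell barcode, not normalized, with barcodes already called as cells. The submitters' processing notes name Cell Ranger 3.1.0 and mm10, while the matrix header of day 11 names version 6.0.1. Cells with 2000 or more UMIs and a mitochondrial share under 20% were kept. Members and gene lists were chosen with earlier results of these data known. Counts were summed over each set and divided by the set's total; a gene was called past 2-fold of CPM plus 10 where its mean was 5 CPM or more. Intervals were Clopper-Pearson, Poisson and conditional binomial (scipy 1.17.1), and the comparison was tested on simulated data. Doublets were scored with Scrublet in scanpy 1.11.5 and left in, with their removal as an alternative. Neighbours and groups used 2000 variable genes, 30 components, 20 neighbours and Leiden at resolution 1, without the 5 genes of the rules. Named genes were those of the rules, list genes at a mean of 20 CPM or more, and the 15, 10 or 5 highest and lowest ratios above 50 CPM. List genes of lower level and the endoderm genes of the 6 cells were named after their values were seen. The counts of naive and streak genes of days 5 and 6 against day 4 were also added then. Genes with near-identical copies (*Dppa5a*, *Dppa3*, *Defa30*) are uncertain, because reads can be shared between copies.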

Additional observations from a re-analysis of the deposited data

How the results depend on the processing

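No paired analysis was possible because each day is 1 library. With the reported settings 6.80% of day 4 cells met the rule, 77 genes were higher and 16 lower against primed cells, 210 and 90 against the other cells, and the naive median was 2.18. The share was 10.0% with 1 or more UMIs of the pair, 4.98% with 4 or more and 6.07% with 5 or more of *Pou5f1*, 1.81% after thinning and 5.83% without high doublet scores. At day 5, where 4.37% met the rule, these settings gave 5.29%, 3.56%, 3.56%, 1.20% and 3.74%. At day 6 thinning gave 0.157%, and at day 11 thinning and the removal of doublets gave 0%. Against primed cells, 1 or more UMIs of the pair gave 50 higher and 7 lower genes. The lower genes numbered 34 with 4 or more, 44 after thinning, 30 without high doublet scores and 30 by the mean over cells. Against the other cells, thinning gave 355 and 268 and the removal of doublets 184 lower genes. The added constant mattered most. CPM plus 1 gave 185 and 92, 475 and 297 and a naive median of 5.43, and CPM plus 50 gave 15 and 5, 37 and 13 and 1.30. A minimum mean of 20 CPM gave 47 and 112 higher genes. Chosen after the data were seen, cells of 20000 to 45000 UMIs gave a share of 6.06%, 118 and 39, and 187 lower genes. Cells with under 3 *Hand1* UMIs gave a share of 13.6%, and 20 or more UMIs of the pair a share of 1.96%, 173 and 72, and 153 lower genes. Of 780 values of 50 named genes under these settings, 388 moved by more than their counting error, and none lay on the other side of 1. Many of the named genes were chosen for extreme ratios, so this says little about other genes. Depth limits genes under 5 CPM, and the causes were not tested.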

Other observations

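Cell cycle genes did not set the *Zfp42* or *Dppa3* cells of day 4 apart. None of 12 S phase genes and none of 12 G2 and M phase genes was past 2-fold against primed cells or against the other day 4 cells, and the median ratios against primed cells were 1.05 and 0.947. Of 15 glycolysis genes, none was past 2-fold against primed cells and the median ratio was 0.883. *Ldha*, lactate dehydrogenase, stood at 2018 CPM in the selected cells and 2716 CPM in primed cells, *Slc2a1*, a glucose transporter, at 138 and 210 CPM, and *Pfkp*, a phosphofructokinase, at 66.9 and 29.7 CPM. Against the other day 4 cells *Pdk1* alone was higher past 2-fold, at 77.8 against 29.5 CPM, beside 2.29% of all genes. Of the 8 genes of LIF and STAT3 signalling, *Pim1* and *Tfcp2l1* were higher past 2-fold in both comparisons. Of all genes, 0.837% were higher against primed cells and 2.29% against the other cells. *Pim1* stood at 54.1 against 20.7 CPM in primed cells.

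The imprinted non-coding RNAs *Meg3* and *Rian*, which lie next to each other on chromosome 12, both differed with the count of *Zfp42* plus *Dppa3* UMIs. *Meg3* stood at 341, 293, 259 and 172 CPM in cells with 2 to 3, 4 to 9, 10 to 19 and 20 or more UMIs of the pair, and *Rian* at 111, 92.8, 79.6 and 57.8 CPM. In primed cells they stood at 473 and 151 CPM. Neither was past 2-fold between the selected and the primed cells, with ratios of 0.56 and 0.58. Of 12 caudal and *Hox* genes, 8 passed the limit on low values against primed cells and none of these was past 2-fold. Against the other day 4 cells 10 passed it. *Hoxb1* and *Hoxb2* were lower past 2-fold than in the other cells, at 30.3 against 75.8 CPM and 26.5 against 81.7 CPM, beside 0.98% of all genes.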
